A study of Arabidopsis thaliana with 6 samples.

Results

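The transcripts described here are those of the Arabidopsis thaliana mitochondrial genome, which carry identifiers beginning with ATMG. They were chosen by their deposited TPM, as all such identifiers above 0 in at least 1 of 6 libraries, which gave 70 of the 122 mitochondrial identifiers in a table of 27655 genes. The remaining 52 were listed at 0 in every library. RNA-seq was carried out on total RNA of whole seedlings 10 days old, grown in long days. The compared groups were a line named h3.3ko;HTR5, with 3 libraries, and wild type Col, with 3 libraries. From its name, the line combines a knockout of histone H3.3, the H3 variant that chromatin receives independently of DNA replication, with HTR5, 1 of the genes for it. The sources used here do not give its construction or alleles. It is called the mutant line, or mutant, from here on. Nothing in the labels says that replicates came from separate growth batches, so p-values measure the spread between these libraries, which may be technical.

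The plant mitochondrial genome encodes a small share of the respiratory chain, namely subunits of NADH dehydrogenase (complex I), cytochrome b of complex III, cytochrome c oxidase (complex IV) and ATP synthase (complex V). It also encodes proteins that attach heme to cytochrome c, ribosomal proteins, and many reading frames of unknown function. Most other mitochondrial proteins, the RNA polymerases included, are encoded in the nucleus and imported. Plant mitochondrial transcripts are spliced and edited from C to U, some are joined from separately transcribed pieces, and a poly(A) tail on them promotes their decay.

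The values are TPM, a read number per gene length scaled to the same total in each library. Every mitochondrial value could be turned back into whole reads, with the smallest gene length that gave whole reads in all 6 libraries. Libraries held 13903771 to 14502844 recovered reads in the mutant and 13796648 to 14369578 in Col. The members took 985, 654 and 604 of these reads in the mutant replicates 1 to 3, against 566, 442 and 487 in Col. They are thus thinly covered. The median member had 6 reads over all 6 libraries and a mean level of 0.302 TPM, against a median of 10.2 TPM over all genes above 0. The H3.3 gene HTR8 was at 3.19 to 5.20 TPM in mutant libraries, against 289 to 323 TPM in Col libraries. HTR4 was at 148 to 155 TPM in the mutant and 309 to 331 TPM in Col, and HTR5 at 290 to 298 TPM in the mutant and 403 to 423 TPM in Col.

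The files and the reference annotation do not name the mitochondrial identifiers directly. A name was therefore taken from the reference's notes on nuclear genes that resemble a mitochondrial identifier, or from a mitochondrial gene of exactly the same length in the reference. The second way was used for members with at least 10 reads, and gives a match in length, not proof of identity. The reference (TAIR10.1) holds another mitochondrial assembly than TAIR10, the build named by the submitters. Of the 70 members, 8 received a role by length and 13 by a note, and 49 received none. These roles were assigned after the values had been seen.

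Of the 20 members with a mean of at least 1 TPM, the level used as the minimum for testing, 5 rose in the mutant and 0 fell by limma (adjusted p under 0.05, Benjamini-Hochberg over all genes tested). Of all 19013 genes tested, 12.0% changed, 3.70% being higher and 8.32% lower in the mutant, which are 703 and 1582 genes. Other scalings gave 967 higher and 1245 lower genes (median of ratios) and 1012 higher and 1170 lower genes (quantile). At an unadjusted p under 0.05 the number of members that were lower was also 0, and a model of the recovered reads (limma voom) called 3 higher and 0 lower. The 5 were ATMG01370, ATMG00690, ATMG00665, ATMG00110 and ATMG01120, of which ATMG01370 and ATMG00690 were called under every alternative in which they were tested. All 3 mutant libraries lay above all 3 Col libraries for 7 of the 20 members, and below them for 0. Over all tested genes these shares were 10.8% and 20.4%. The log2 fold change was positive for 18 of the 20 members, with a median of 0.42, against 42.1% positive and a median of -0.03 over all tested genes. Without mutant replicate 1 it was positive for 14 of the 20. Of the 20, 4 had a Col mean under 1 TPM and reached the minimum only through the mutant libraries, so that they had to differ in that direction. Among the 16 with at least 1 TPM in both groups, 2 were called (ATMG01370 and ATMG00665), 3 had all mutant libraries above Col, and 14 had a positive log2 fold change.

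**Figure D1:**
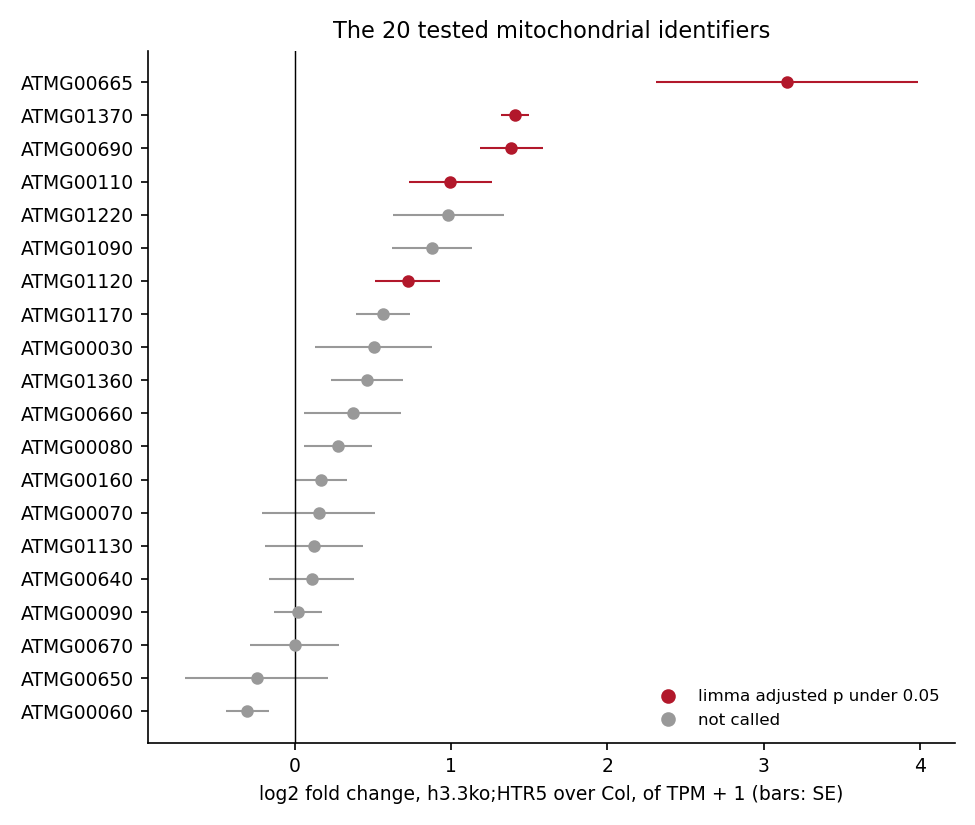
Log2 fold change of TPM + 1, mutant (h3.3ko;HTR5) over Col, on the x axis for each of the 20 tested mitochondrial identifiers on the y axis, with bars for the standard error and red points for an adjusted p under 0.05 by limma. Of the 20 points 18 lie right of 0, all 5 red ones among them, and ATMG00665 has the widest bar, 3.15 ± 0.84.

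ATMG01370, an identifier with a length of 336 bases and no role assigned, was the member with the smallest adjusted p. It was at 17.5, 17.1 and 18.9 TPM in the mutant replicates, against 6.44, 6.13 and 5.71 TPM in Col. The groups lay far apart and the replicates of each close together. These levels rest on 38, 38 and 40 reads in the mutant and 14, 13 and 12 reads in Col. The mean level was 2.93 times that of Col, and the log2 fold change was 1.41 ± 0.09 (SE, limma adjusted p = 1.59e-05). Its adjusted p ranged from 4.90e-06 to 0.00109 over 16 alternatives.

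ATMG00690, with 723 bases and no role assigned, was at 2.79, 2.52 and 4.16 TPM in the mutant, against 0.855, 0.438 and 0.442 TPM in Col. The lowest mutant library was well above the highest Col library. It had 13, 12 and 19 reads in the mutant and 4, 2 and 2 reads in Col. The log2 fold change was 1.39 ± 0.20 (SE, limma adjusted p = 0.00204), and on the TPM scale the ratio of means was 5.46. Over the 15 alternatives in which it was tested the adjusted p lay between 0.00113 and 0.0117. ATMG00690 is among the members that passed the minimum only through the mutant libraries.

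**Figure D2:**
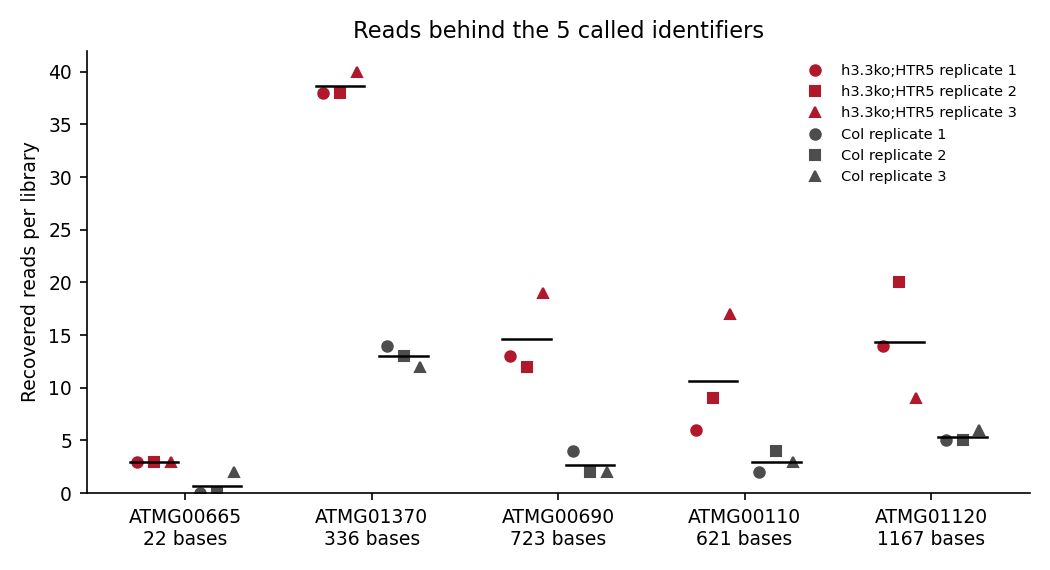
Recovered reads per library on the y axis for the 5 mitochondrial identifiers called higher, with their lengths under the names on the x axis. Red symbols are mutant (h3.3ko;HTR5) libraries, grey symbols Col libraries and bars group means, and all read numbers lie at 40 or below, with 3 at most for ATMG00665.

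Members with a role in complex I, which passes electrons from NADH into the respiratory chain, had 4 tested identifiers, of which 2 were called higher, beside 3.70% of all tested genes. The first of these rests on 3 reads or fewer per library, and the second passed the minimum only through the mutant libraries. ATMG00665 has a length of 22 bases, that of a piece of nad5 in the reference, and is the shortest member, the next being 303 bases long. It was at 21.2, 20.7 and 21.6 TPM in the mutant, against 0, 0 and 14.5 TPM in Col. Since the length is so short, a single read is worth 6.89 to 7.26 TPM, and the values stand for 3 reads in each mutant library against 0, 0 and 2 reads in Col. Col replicate 3 was thus near the mutant libraries and the other Col libraries at 0. The log2 fold change was 3.15 ± 0.84 (SE, limma adjusted p = 0.0364), and the call was lost in 10 of 16 alternatives, with an adjusted p of up to 0.224.

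ATMG01120 has 1167 bases, the length of a piece of nad1, another complex I subunit. It was at 1.86, 2.60 and 1.22 TPM in the mutant, against 0.662, 0.679 and 0.821 TPM in Col, from 14, 20 and 9 reads in the mutant and 5, 5 and 6 reads in Col. The groups did not overlap, though mutant replicate 3 was close to Col. The log2 fold change was 0.72 ± 0.21 (SE, limma adjusted p = 0.0483), and the call was lost in 8 of 15 alternatives, with an adjusted p of up to 0.148.

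The other tested members with a complex I length were not called. ATMG00650, with the length of nad4L, was at 7.68, 1.5 and 1.57 TPM in the mutant, against 2.04, 3.14 and 6.33 TPM in Col. The groups overlapped, with 1 high library in each (log2 fold change -0.24, limma adjusted p = 0.791). ATMG00070, with the length of nad9, averaged 1.63 ± 0.74 TPM in the mutant and 1.54 ± 1.47 TPM in Col (SD, n = 3 each), with a limma adjusted p of 0.834. All 6 members with a complex I role held 47, 35 and 38 reads in the mutant and 30, 19 and 26 reads in Col. Every mutant library thus held more of their reads than any Col library. Without ATMG01120, which passed the minimum only through the mutant libraries, the groups overlapped in these reads. For single tested genes, the share with all mutant libraries above Col was 10.8%. Members a few bases off a complex I length were left with no role. ATMG00060, of 1516 bases beside 1520 for a piece of nad5, held 42, 31 and 29 reads in the mutant and 42, 43 and 44 reads in Col. ATMG00510 (near nad7) held 93 reads in the mutant and 64 reads in Col, and ATMG00580 (near nad4) 73 and 39 reads. ATMG00513 and ATMG00516, near pieces of nad5 and nad1, held 23 and 8 reads in the mutant and 8 and 5 reads in Col. With the reads of all these members added, the groups no longer stayed apart, mutant replicate 2 being just below Col replicate 1.

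ATMG00110, with 621 bases and the length of ccmB, which belongs to the machinery that attaches heme to cytochrome c, was at 1.5, 2.20 and 4.34 TPM in the mutant, against 0.498, 1.02 and 0.772 TPM in Col. These are 6, 9 and 17 reads in the mutant and 2, 4 and 3 reads in Col. All mutant libraries were above Col, with the widest spread in the mutant. The log2 fold change was 1.0 ± 0.27 (SE, limma adjusted p = 0.0371). The call was lost in 8 of 15 alternatives, with an adjusted p of up to 0.119, and the member passed the minimum only through the mutant libraries. The 3 members with a role in cytochrome c maturation held 8, 16 and 22 reads in the mutant and 4, 5 and 4 reads in Col. Most of these were reads of ATMG00110 itself, and without it mutant replicate 1 was not above Col replicate 1.

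Members of complex IV, complex V and the ribosome had 4 tested identifiers, of which none was called by limma, at an adjusted p between 0.0510 and 0.845. ATMG01090, which a nuclear gene's note relates to subunit 9 of ATP synthase, came nearest. It was at 2.75, 2.69 and 2.41 TPM in the mutant, against 0.392, 2.01 and 0.810 TPM in Col, so that the groups did not overlap (log2 fold change 0.88, limma adjusted p = 0.0510). It was called in 6 of 15 alternatives, voom and the replicate block among them, and over all 15 the limma adjusted p lay between 0.0104 and 0.132. ATMG01360, with the length of cox1, the catalytic subunit of complex IV, averaged 2.08 ± 0.97 TPM in the mutant and 1.16 ± 0.08 TPM in Col (SD, n = 3 each), with a limma adjusted p of 0.234. ATMG00640, with the length of atp4 of complex V, had a log2 fold change of 0.11 (limma adjusted p = 0.845), and ATMG00080, with the length of the ribosomal protein gene rpl16, one of 0.28 (limma adjusted p = 0.461).

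By role, complex IV members held 37, 27 and 15 reads in the mutant and 13, 12 and 13 reads in Col. Complex V members held 29, 20 and 18 reads in the mutant and 5, 16 and 14 reads in Col, and ribosomal protein members 10, 12 and 6 reads in the mutant and 5, 9 and 5 reads in Col. The mutant libraries lay above Col for complexes IV and V and overlapped with Col for the ribosomal proteins. Among single tested genes, all mutant libraries lay above Col for 10.8%. These sums leave out members a few bases off a reference length. ATMG00160, of 2127 bases beside 2126 for cox2, held 68, 75 and 60 reads in the mutant and 81, 47 and 49 reads in Col. With it added, complex IV overlapped between the groups, mutant replicate 3 being below Col replicate 1. ATMG00090, of 3252 bases beside 3254 for rps3, held 300 reads in the mutant and 291 reads in Col. The ribosomal protein members overlapped with or without it. The single member with a complex III role, noted as related to cytochrome b, had 1 read in each mutant library and 0, 0 and 1 read in Col.

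Most reads belonged to members with no role. ATMG00030, an identifier of 324 bases, was the most abundant member and held 61.1%, 34.0% and 37.5% of the members' TPM in the mutant replicates, and 57.1%, 56.6% and 41.5% in Col. It was at 187, 52.4 and 60.6 TPM in the mutant, against 69.2, 58.7 and 50.3 TPM in Col. Mutant replicate 1 was far above the others and the remaining libraries of both groups overlapped. The log2 fold change was 0.51 ± 0.37 (SE, limma adjusted p = 0.432), and without mutant replicate 1 it was -0.06. The same library stood apart in chloroplast transcripts, whose summed TPM was 3155, 991 and 1029 in the mutant and 1160, 1116 and 1171 in Col. It was the highest library for 6 of the 20 tested members, and its part in the results was not tested beyond leaving it out.

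The long members ATMG00060, ATMG00090 and ATMG00160 were among the best covered and showed no call. ATMG00060, with 1516 bases, was at 4.30, 3.10 and 3.03 TPM in the mutant, against 4.28, 4.49 and 4.64 TPM in Col. It had the most negative log2 fold change of the tested members, -0.30 ± 0.14 (SE, limma adjusted p = 0.200), and mutant replicate 1 overlapped with Col. ATMG00090, with 3252 bases and 300 reads in the mutant and 291 reads in Col, was at 4.48, 5.64 and 4.14 TPM in the mutant, against 5.47, 3.70 and 4.91 TPM in Col. Its log2 fold change was 0.02 (limma adjusted p = 0.957), with wide overlap of the groups. ATMG00160, with 2127 bases, was at 4.96, 5.34 and 4.47 TPM in the mutant, against 5.89, 3.50 and 3.68 TPM in Col, and overlapped as well (log2 fold change 0.17, limma adjusted p = 0.570).

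Among the shorter members with no role, ATMG01220 had the largest log2 fold change without a call. This identifier of 342 bases was at 7.26, 1.77 and 5.10 TPM in the mutant, against 1.81, 0.926 and 2.34 TPM in Col. Mutant replicate 2 lay within the Col range and the other mutant libraries above it (log2 fold change 0.98 ± 0.35, limma adjusted p = 0.106). It was called in 2 of 15 alternatives, with a limma adjusted p between 0.00952 and 0.288 over all 15. ATMG01170, with 1385 bases, averaged 1.49 ± 0.10 TPM in the mutant and 0.684 ± 0.12 TPM in Col without overlap (SD, n = 3 each, limma adjusted p = 0.0602). It was called in 3 of 15 alternatives, with a limma adjusted p between 0.0113 and 0.178 over all 15, and passed the minimum only through the mutant libraries. ATMG00660 was at 6.20, 7.75 and 4.58 TPM in the mutant, against 5.15, 2.11 and 7.46 TPM in Col, and ATMG00670 at 3.18, 3.11 and 1.72 TPM in the mutant, against 1.31, 2.87 and 4.25 TPM in Col. Their groups overlapped, with log2 fold changes of 0.37 and 0.00 and limma adjusted p-values of 0.494 and 1.0. ATMG01130 had a log2 fold change of 0.13 and a limma adjusted p of 0.843.

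**Figure D3:**
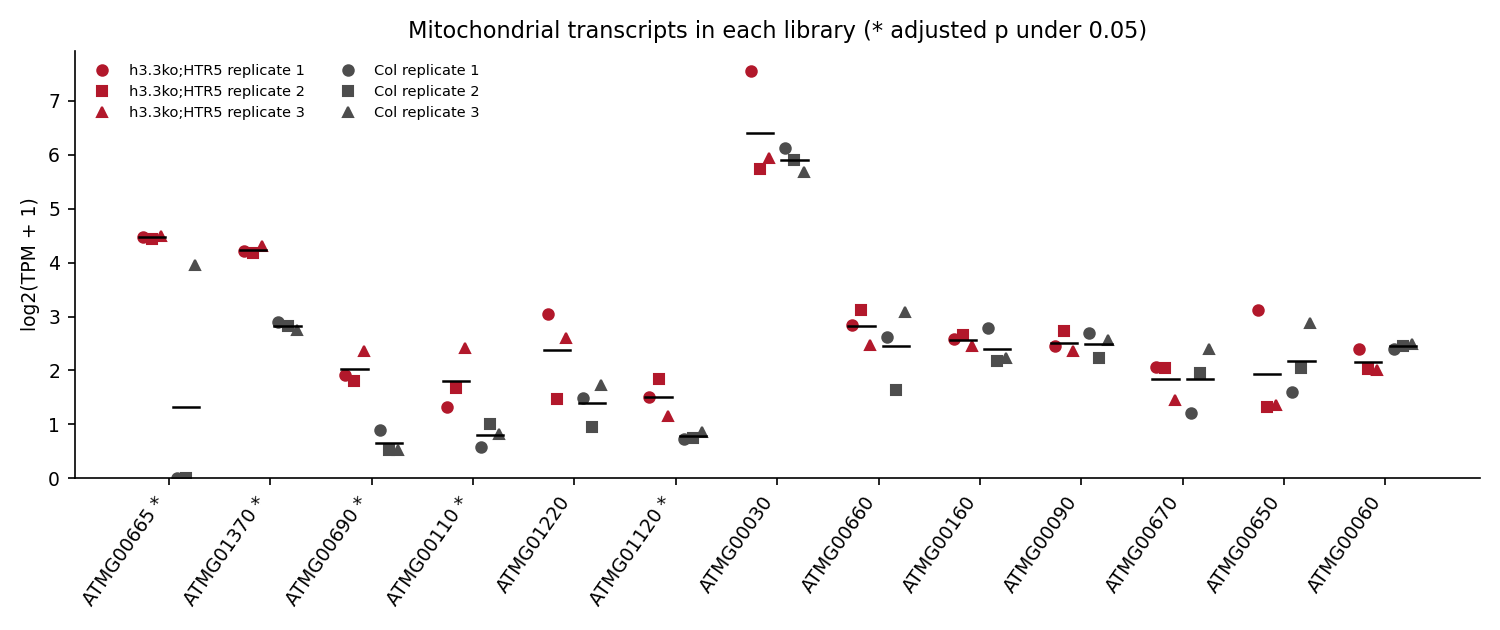
Level of 13 mitochondrial identifiers in each library, as log2(TPM + 1) on the y axis, ordered by log2 fold change from left to right. Red symbols are mutant (h3.3ko;HTR5) replicates, grey symbols Col replicates, black bars group means and asterisks an adjusted p under 0.05 by limma. Mutant replicate 1 lies above all other libraries for ATMG00030, and 2 Col libraries lie at 0 for ATMG00665.

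Summed over the 70 members, mitochondrial transcripts took 305, 154 and 162 TPM in the mutant, against 121, 104 and 121 TPM in Col, which is 0.0305%, 0.0154% and 0.0162% of all TPM in the mutant and 0.0121%, 0.0104% and 0.0121% in Col. Every mutant library was above every Col library, with a ratio of means of 1.79. Means were 207 ± 85.3 TPM in the mutant and 115 ± 10.2 TPM in Col (SD, n = 3 each). The sum is given without a p-value because its members were chosen with results of these libraries known, and an exact permutation of 3 against 3 libraries cannot give less than 0.1. In bulk RNA, a larger number of mitochondria or of cells rich in them and more RNA per mitochondrion cannot be told apart.

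Of the difference between the group means, ATMG00030 held 44.2% and ATMG00665 17.8%. Without both, the sums were 97.6, 81.1 and 79.3 TPM in the mutant, against 52.1, 45.0 and 56.5 TPM in Col, still without overlap, at a ratio of 1.68. Reads per 1000000 weight members by coverage and not by length. They were 70.1, 45.1 and 43.4 in the mutant, against 39.4, 32.0 and 35.3 in Col, a ratio of 1.49. Without ATMG00030 they were 42.3, 37.4 and 34.5 in the mutant, against 29.3, 23.3 and 27.9 in Col, and the ratio was 1.42. Without mutant replicate 1 the ratio of summed TPM was 1.37, in place of 1.79. With each library's sum divided by its chloroplast sum, the values were 0.0968, 0.156 and 0.157 in the mutant, against 0.105, 0.0929 and 0.104 in Col. The groups then overlapped, with mutant replicate 1 below 2 Col libraries, and the ratio of means was 1.36.

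**Figure D4:**
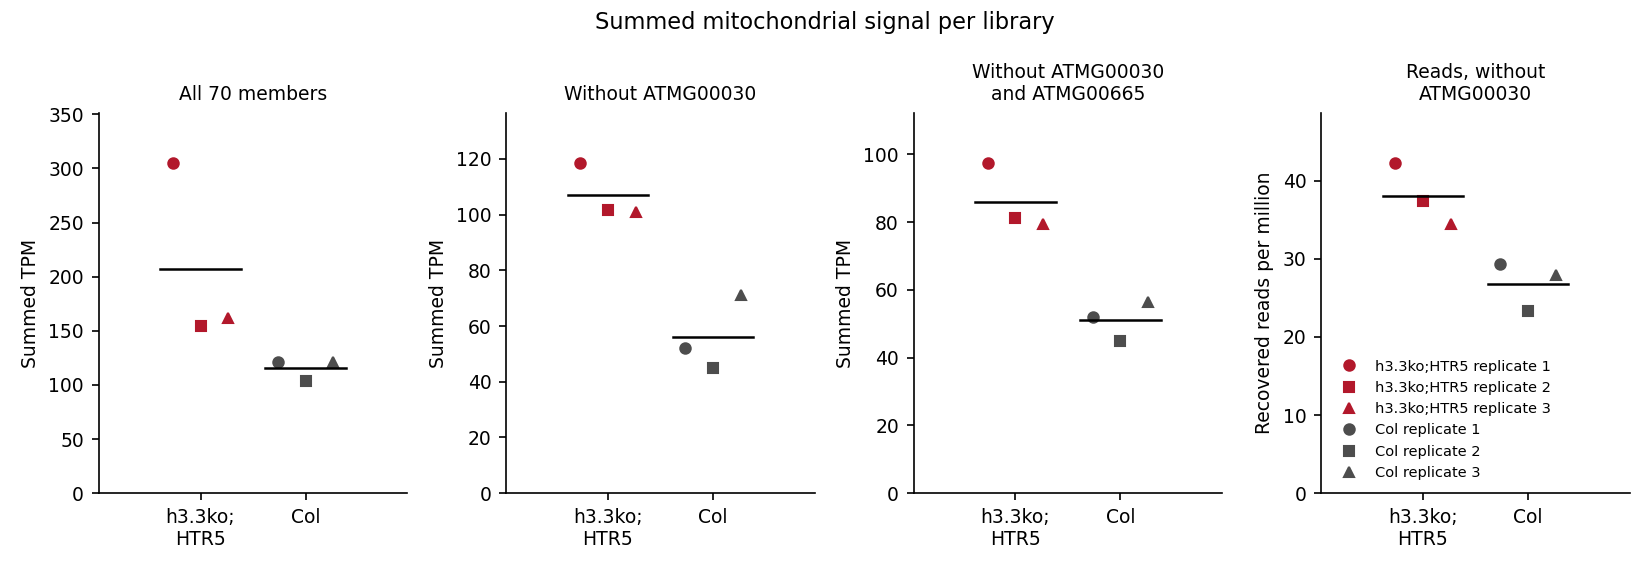
Summed mitochondrial signal per library, in TPM for all 70 members, without ATMG00030, and without ATMG00030 and ATMG00665, and in recovered reads per 1000000 without ATMG00030, each on its own y axis from 0. Red symbols are mutant (h3.3ko;HTR5) libraries, grey symbols Col libraries and bars group means, and in every panel the lowest red symbol lies above the highest grey one.

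Detection was sparse. Of the 70 members, 49, 46 and 52 were above 0 in the mutant replicates and 42, 34 and 41 in Col, and 28 were above 0 in all 6 libraries. There were 15 members above 0 in mutant libraries alone, with at most 5 reads each, and 6 in Col libraries alone, with at most 2 reads each. The share of all genes above 0 in a single group is not given here, so these counts are not read as particular to the members. No member was above 0 in all 3 libraries of a group and in none of the other. The 36 members with under 10 reads held 71 reads in the mutant and 26 reads in Col. Just inside the rule stood 12 members with 1 read in all, at 0.107 to 0.486 TPM in the library that held it, and just outside stood the 52 identifiers at 0.

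Of the 50 members under the minimum for testing, 14 had at least 10 reads. The best covered were ATMG00510, with 38, 21 and 34 reads in the mutant and 21, 18 and 25 reads in Col, and ATMG00580, with 40, 15 and 18 reads in the mutant and 18, 9 and 12 reads in Col. Both overlapped between groups. When all 23139 genes above 0 were tested, with no minimum level, limma called 7 of the 70 members higher and 0 lower, beside 2.47% higher and 6.13% lower over all genes in that fit, and 3 of these had not been tested before. ATMG01200 had 9, 6 and 6 reads in the mutant and 1, 2 and 1 reads in Col (limma adjusted p = 0.00731 in that fit). ATMG00120 had 4, 3 and 4 reads in the mutant and 1, 0 and 0 reads in Col (limma adjusted p = 0.00531). ATMG01280, noted as related to subunit II of cytochrome c oxidase, had 5, 5 and 4 reads in the mutant and 2, 0 and 1 reads in Col (limma adjusted p = 0.0199). For each of the 3, all mutant libraries lay above all Col libraries, which held for 9.53% of all genes in that fit. ATMG00110 and ATMG00665 were not called in that fit.

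A large part of the mitochondrial genome is also present in the nucleus of the Col accession, near the centromere of chromosome 2, so reads from such sequence have more than 1 possible origin. Of the 50-base windows of the reference's mitochondrial sequence of 367808 bases, 70.6% were found exactly in a nuclear chromosome, on either strand. That sequence is not the TAIR10 one, so shares for the sequence the reads were aligned to may differ. How reads with several matching places were counted is not stated in these sources. Of the 70 members 16 had the length of a gene in the reference. Of these, 8 had at least 10 reads, 5 had fewer reads and a note naming the same gene, and 3 (ATMG00830, ATMG01240 and ATMG01260) had fewer reads and no note and were not used. Among the 8, ATMG00665 is shorter than a window. The genes with the lengths of nad9, ccmB, nad4L, atp4 and cox1 shared no window with the nucleus, the nad1 piece shared 23.8% of its windows and rpl16 34.6%. The 5 with a note shared 91.7% (ccmFN2, of cytochrome c maturation) or all of their windows (atp8, rps4, rps12 and atp1). Since reads and nuclear notes decided which members entered, their levels are not compared by how much they share.

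Identifiers named in notes on nuclear genes were set beside the others. Of the 52 at 0 in every library 28 were so named, among them ATMG00220 (apocytochrome b), ATMG00410 (ATP synthase subunit 6), ATMG00990 (NADH dehydrogenase subunit 3) and ATMG01270 (ribosomal protein S7). Of the 70 members 25 were so named, with a median level of 0.164 TPM and 2 at 1 TPM or more. The other 45 had a median of 0.463 TPM and 18 at 1 TPM or more.

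In the nucleus, 95 genes of the table had at least 50% of their windows in the mitochondrial sequence, and 93 of them lie on chromosome 2 between bases 3239693 and 3503476 (TAIR10.1). These copies were at 0 in all libraries for 46 genes, and only 3 reached the minimum for testing. AT2G07774 averaged 2.04 TPM in the mutant and 1.12 TPM in Col, AT2G07638 1.62 TPM in the mutant and 1.0 TPM in Col, and AT2G07662 1.64 TPM in the mutant and 0.858 TPM in Col. None of the 3 passed limma, with log2 fold changes of 0.53, 0.35 and 0.52 and adjusted p-values of 0.180, 0.410 and 0.191. All 95 copies together took 19.1, 11.5 and 15.4 TPM in the mutant, against 9.10, 5.51 and 8.50 TPM in Col, so that they too were higher in every mutant library, at a ratio of 1.99. Their reads were 167, 95 and 130 in the mutant, against 85, 50 and 68 in Col. Reads of these nuclear genes and of mitochondrial members of the same sequence cannot be told apart.

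Genes of the nucleus that act in mitochondria were described in 4 lists, by counts beside the shares over all tested genes. Of 20 tested genes for mitochondrial transcription, RNA processing and decay, 0 rose and 1 fell by limma, beside 3.70% and 8.32% of all genes, with a median log2 fold change of -0.03, the same as that of all tested genes. The one that fell was PMH1, a mitochondrial RNA helicase, at 25.6 ± 2.34 TPM in the mutant and 32.8 ± 0.73 TPM in Col (SD, n = 3 each, limma adjusted p = 0.0128), a call that was lost without mutant replicate 3. RPOTm, a mitochondrial RNA polymerase, averaged 13.2 TPM in the mutant and 14.3 TPM in Col. Of 8 tested genes for mitochondrial DNA maintenance, 0 changed by limma, beside 12.0% of all tested genes, and their median was -0.09. So few genes cannot show a share below that of all genes. The organellar DNA polymerase POLIA averaged 27.6 TPM in the mutant and 26.2 TPM in Col, and the DNA-binding protein WHY2 17.2 TPM in the mutant and 20.3 TPM in Col.

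Of 39 tested genes for nuclear-encoded subunits of the respiratory chain, 0 rose and 5 fell by limma, against 8.32% of all genes that fell, and the median log2 fold change was -0.11. SDH1-1, the flavoprotein of succinate dehydrogenase, was at 78.1 ± 3.60 TPM in the mutant and 95.0 ± 0.61 TPM in Col (SD, n = 3 each, log2 fold change -0.28, limma adjusted p = 0.00555). Cytochrome c gene CYTC-2 was at 26.9 ± 2.43 TPM in the mutant and 33.5 ± 0.79 TPM in Col (SD, n = 3 each, limma adjusted p = 0.0233). The other 3 were ATP synthase genes with smaller changes, AT1G51650 for the epsilon subunit at 95.3 TPM in the mutant and 112 TPM in Col, and AT5G08690 and AT5G08670, near-identical genes for the beta subunit between which reads can be split. The count of 5 became 4 with either other scaling, 3 with a replicate block, 1 with no trend in the variance prior, 1 without mutant replicate 1 or 3, and 2 and 3 without Col replicates 3 and 2. The difference in direction between these genes and the mitochondrial members was not tested.

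In the list for alternative respiration and the response to mitochondrial dysfunction, 13 of 21 genes were tested, of which 1 rose and 1 fell by limma, beside 3.70% and 8.32% of all genes. The small mitochondrial heat shock protein gene AT5G51440 was at 13.4 ± 1.62 TPM in the mutant and 8.25 ± 0.37 TPM in Col (SD, n = 3 each, log2 fold change 0.63, limma adjusted p = 0.00340). OM66, an outer membrane ATPase, was at 3.58 ± 0.67 TPM in the mutant and 7.03 ± 1.21 TPM in Col (SD, n = 3 each, log2 fold change -0.81, limma adjusted p = 0.00759). AOX1A, the alternative oxidase commonly used as a marker of mitochondrial dysfunction, averaged 51.9 TPM in the mutant and 49.0 TPM in Col (log2 fold change 0.08, limma adjusted p = 0.333).

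Markers of tissues in the seedlings were set beside these values. The 6 leaf markers summed to 64152 to 66019 TPM in the mutant and 58939 to 63915 TPM in Col. Most of this was RBCS1A, at 23988 TPM in the mutant and 22362 TPM in Col, and LHCB1.3, at 24336 and 22876 TPM. By limma 1 leaf marker was called higher (0 to 2 over the alternatives), beside 3.70% of all tested genes. None was called lower, except 2 with quantile normalization. The 9 root markers summed to 2180 to 2415 TPM in the mutant and 2472 to 2552 TPM in Col. Most of this was PYK10, at 1775 TPM in the mutant and 1934 TPM in Col. EXPA7 alone among them had a positive log2 fold change, 0.17. By limma 1 root marker was called lower, beside 8.32% of all tested genes. That count was 5 with voom, 3 with library weights or without Col replicate 2, and 2 with the robust option or without mutant replicate 2. The pollen markers VGD1 and BCP1 were at 0 in every library. The part of tissue makeup in the mitochondrial values was not tested.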

How the data were processed

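A single table of TPM values, made by the authors, was deposited for whole seedlings, with 3 libraries per group. Per the submitters' processing notes, TAIR10 was the build and the tools were HISAT2 2.1.10, fastp 0.20.1 and DESeq2 1.26.0. The read counter, its strand setting, any selection of poly(A) RNA and the treatment of reads with several matches are not stated in the sources at hand. With gene-span lengths, 22980 of 22985 expressed genes with a reference length (99.98%) gave whole reads in all libraries, within 0.02 reads. For the 70 mitochondrial identifiers the smallest length of at least 15 bases giving whole reads within 1e-05 reads was taken. If the true length is a multiple of it, so are the reads.

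limma 3.58.1 in R 4.3.3 was fitted to log2(TPM + 1) for all genes averaging 1 TPM or more, with a trend in the variance prior, two-sided, with Benjamini-Hochberg adjustment and a threshold of 0.05. Fold changes on this scale understate the change of low genes. Alternatives were another pseudocount, filter, scaling, variance prior, library weights, a replicate block, voom on recovered reads and leaving out each library. Members and gene lists were chosen with earlier results of these data known. Named in full were called members, the 10 with the highest mean TPM and the 5 with the largest log2 fold change, and from each list up to 4 genes, those called first and then those with the highest TPM. RPOTm, AOX1A and the other members given with values were named after their values had been seen. Sequence windows and mitochondrial gene lengths came from RefSeq's TAIR10.1, whose mitochondrial assembly is not that of TAIR10.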

Additional observations from a re-analysis of the deposited data

How the results depend on the processing

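The number of members called higher was 5 and became 2 of 4 tested with a minimum of 5 TPM, 3 with voom, and 2 to 3 when 1 library was left out, being 2 without Col replicate 1 and 3 without each of the others. It was 4 with no trend in the variance prior or with library weights, 5 with a pseudocount of 0.1, with median-of-ratios scaling or with the robust option, and 7 with no filter or with quantile normalization. The number called lower was 0 in each of these fits. The cause of the lost calls was not tested, except that leaving out a library or raising the minimum leaves fewer values. Libraries of the same replicate number showed no shared deviation, with correlations of -0.04, 0.02 and -0.01 after removing group means. With 3 libraries per group these values cannot show whether such libraries were grown or prepared together. With the replicate block 6 members were called, ATMG01220 (limma adjusted p = 0.0157) and ATMG01090 (limma adjusted p = 0.0408) among them and ATMG01120 not (limma adjusted p = 0.0687). Calls were gained by ATMG01220 also without mutant replicate 2 (limma adjusted p = 0.00952), by ATMG01090 with quantile normalization, the robust option, library weights, voom and without Col replicate 2 (limma adjusted p between 0.0104 and 0.0492), and by ATMG01170 with no filter, quantile normalization and no trend (limma adjusted p between 0.0113 and 0.0316). The ratio of summed TPM stayed above 1 throughout, between 1.37 and 2.02 with 1 library left out. Among the 20 tested members, the sign turned under an alternative for 8, none of them called. With library weights the log2 fold change was -0.16 for ATMG00670 and -0.012 for ATMG00640. With 1 library left out, values ran from -0.11 to 0.12 for ATMG00090, from -0.83 to 0.11 for ATMG00650, from -0.32 to 0.27 for ATMG00670, from -0.062 to 0.84 for ATMG00030, from -0.032 to 0.69 for ATMG00660, from -0.10 to 0.39 for ATMG00640, from -0.16 to 0.41 for ATMG01130 and from -0.12 to 0.60 for ATMG00070. Depth limits every value here: 36 of the 70 members hold under 10 reads in all libraries together.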
